A study of Mus musculus with 2 samples.

Results

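Genes of the tumour necrosis factor (TNF) superfamily were compared by RNA-seq in 2 libraries from mouse hepatic stellate cells in primary culture, which store vitamin A in the liver and turn into myofibroblasts when activated. The members were every gene of the table whose symbol begins with Tnfsf or Tnfrsf and a digit, together with Tnf, Lta, Ltb, Ltbr, Fas, Fasl, Cd27, Cd70 and the adaptor or regulator genes Traf1, Traf2, Traf5, Birc2, Birc3, Cflar, Tradd and Fadd. This gave 41 of 17128 genes, namely 13 ligands, 19 receptors, 8 adaptors or regulators and 1 antisense RNA, Tnfsf13os, which the symbol rule also takes. In the GENCODE annotation 48 genes match the rule, and the other 7 (Cd70, Tnfsf8, Tnfsf11, Tnfrsf8, Tnfrsf13c, Tnfrsf17 and Tnfrsf19) were not analysed here. Both libraries came from cells of genotype Adar1f/f/Cre-ER, which carry floxed alleles of the gene for the RNA-editing enzyme ADAR1 and a recombinase that 4-hydroxytamoxifen (4-OHT) activates. The vehicle library had no 4-OHT, the 4-OHT library had 100 nM, and both were from cells activated in culture for 4 days in medium with serum. The sources used here do not state the promoter that drives the recombinase, the age of the mice or the number of animals. The comparison addressed how ablation of Adar alters gene expression in these cells. An effect of 4-OHT itself and an effect of recombination cannot be told apart in these 2 libraries, and Adar was not analysed here, so the target could not be used to check the labels.

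TNF superfamily ligands are mostly membrane proteins that act as trimers, on the cell surface or after shedding. Their receptors fall into those with a cytoplasmic death domain, which recruit FADD or TRADD and can activate caspase-8, and those that bind TRAF adaptors and lead to NF-kB and MAP kinase signalling. The inhibitor-of-apoptosis proteins encoded by Birc2 and Birc3 and the caspase-8 inhibitor encoded by Cflar steer a death receptor towards survival signalling, and several of these genes are themselves NF-kB targets. In liver, TNF from macrophages and the death ligands TRAIL and FAS ligand from lymphocytes act on hepatocytes and on activated stellate cells.

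There was 1 library per group, so no difference below has a replicate check, no test across replicates was made, and each difference is between these libraries. Values are FPKM, that is, fragments corrected for transcript length and library size, and a change is the log2 of FPKM plus 1, 4-OHT over vehicle. On that scale, genes of low level appear to differ less than their FPKM do. The minimum for a call was 1 FPKM in whichever library was higher, and a gene was called higher or lower from a 2-fold difference on that scale. Markers of other cells stood above those of the labelled cell type in both libraries. The 10 measured of 11 stellate markers, none at 0, summed to 310 FPKM with vehicle and 137 FPKM with 4-OHT. Their median change was −1.08, with 5 of the 10 at least 2-fold lower and none higher, beside 3.48% of all genes at the minimum lower. The 12 macrophage markers, with the Kupffer cell genes Clec4f, Cd5l and Marco among them, summed to 6270 and 4274 FPKM, and the 8 endothelial markers to 1379 and 1526 FPKM. Single genes carried much of the differences in these sums, Lyz2 among the macrophage markers (3050 and 1353 FPKM) and Egfl7 among the endothelial ones (421 and 675 FPKM). The median change was −0.23 for the macrophage and −0.02 for the endothelial markers, with 2 of each list at least 2-fold lower and none higher. The 8 mitochondrially encoded transcripts summed to 6999 and 3404 FPKM. Their median change was −1.32, with 7 of the 8 at least 2-fold lower and none higher. In such bulk RNA, fewer cells of a type and less RNA per cell cannot be told apart, and which cells the family genes came from was not tested. FPKM summed to 493531 with vehicle and 553634 with 4-OHT, and equal totals would shift every unpadded log2 ratio by −0.17.

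At the minimum stood 32 members, of which 12 were at least 2-fold higher with 4-OHT and 20 differed by less, and none was lower by that much. Of all genes at that minimum, 5.78% were at least 2-fold higher and 3.48% at least 2-fold lower (783 and 472 of 13558). FPKM were also rescaled to equal totals above the deposited ones, so that 15371 genes reached the minimum. There 786 genes were higher and 954 lower, and still no member was lower. Tnfsf10 and Fasl reached the minimum with 4-OHT alone, so they could only differ upwards. Counted over every gene, 12 of all 41 members were higher and none lower, beside 4.57% and 2.76% of all 17128 genes. Leaving out the minimum cannot add a call, since genes under 1 FPKM in both libraries cannot reach 2-fold on this scale. The 12 genes were the ligands Tnfsf10, Tnfsf15, Tnf, Fasl and Ltb, the receptors Tnfrsf18, Tnfrsf14 and Tnfrsf9, and the regulators Traf1, Birc3, Birc2 and Cflar. The median change was 0.33 over all 41 members, against 0.02 over all genes. By role the median was 0.39 over all 13 ligands, 0.22 over all 19 receptors and 0.995 over the 8 adaptors. Over the 9 ligands at the minimum it was 1.26, a value that the minimum itself raises, since Tnfsf10 and Fasl passed it through the 4-OHT library alone. In the authors' deposited table, 4 of the members had a q-value under 0.05 and all 4 were ligands that were higher, where 1.72% of all genes were called higher and 0.753% lower. The sources used here do not state how that test estimated a spread with 1 library a group.

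**Figure D1:**
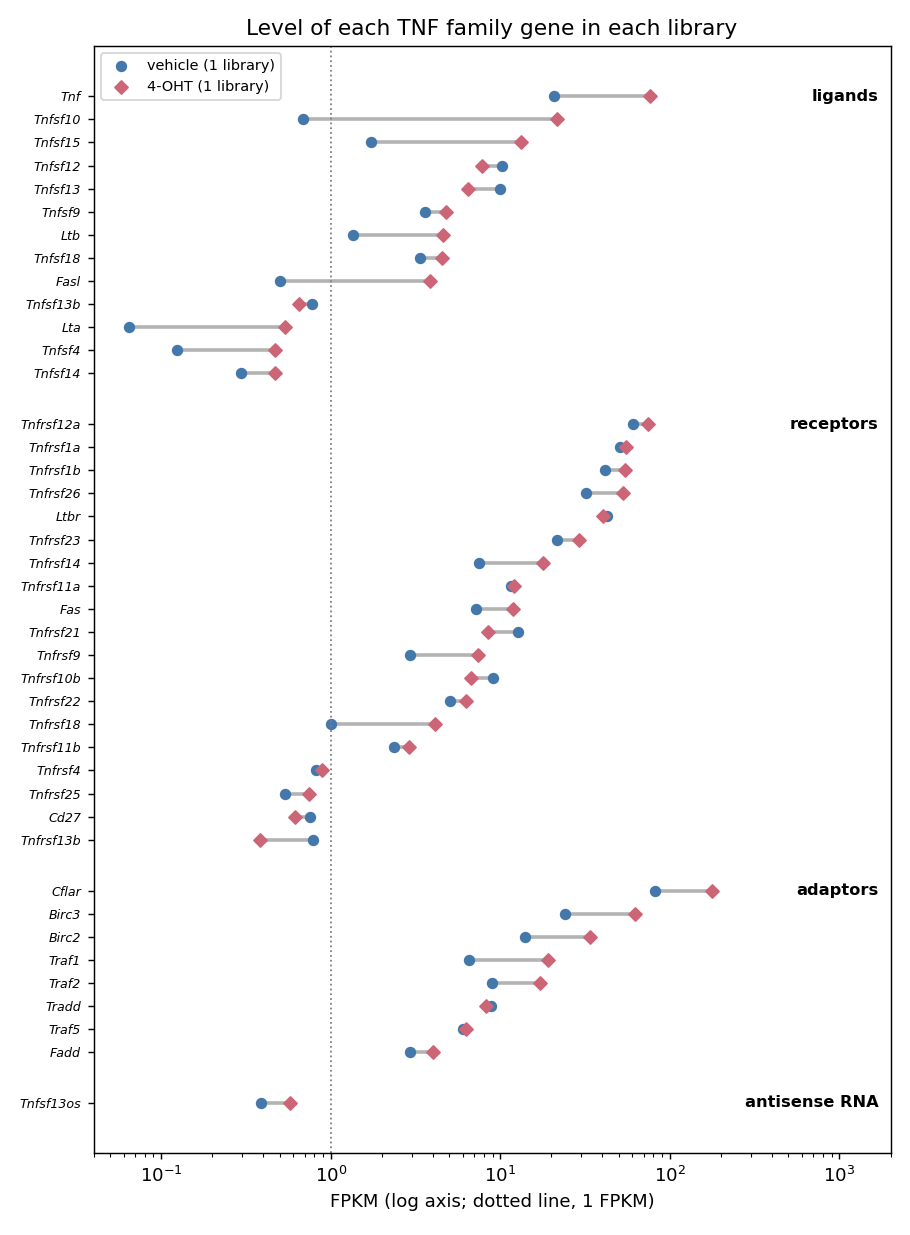
FPKM (log axis) of each of the 41 members, ordered within its role by the 4-OHT value, as circles for the vehicle library and diamonds for the 4-OHT library, 1 library each, with a dotted line at 1 FPKM. Tnf moved from 20.8 to 76.7 FPKM and Tnfsf10 from 0.684 to 21.5 FPKM, while the most abundant receptors, Tnfrsf12a, Tnfrsf1a and Tnfrsf1b, had nearby points.

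Among the ligands the death ligand gene Tnfsf10 differed most. Tnfsf10 encodes TRAIL, which triggers apoptosis through death receptors and is known to be induced by interferon. It lies on GRCm38 at chr3:27317028-27342427 on the plus strand and was at 0.684 FPKM in the vehicle library and 21.5 FPKM in the 4-OHT library, a ratio of 31.5 and a log2 change of 3.74. It was the 35th of the 41 members by level with vehicle and the 11th with 4-OHT. The gene has 2 annotated transcripts, so its fragments could not be counted exactly, and the vehicle value stood for between 21 and 127 fragments, depending on the transcript. The authors' deposited table gave it a q-value of 0.00466. Its promoter window is shown because Tnfsf10 changed most of all members. It is from RefSeq on GRCm38.p6, chr3:27316827-27317126 on the plus strand, from 250 bases before to 50 after the start. The capitals mark the letters AANNGAAA, a loose form of the site bound by interferon regulatory factors, on either strand.
Tnfsf10: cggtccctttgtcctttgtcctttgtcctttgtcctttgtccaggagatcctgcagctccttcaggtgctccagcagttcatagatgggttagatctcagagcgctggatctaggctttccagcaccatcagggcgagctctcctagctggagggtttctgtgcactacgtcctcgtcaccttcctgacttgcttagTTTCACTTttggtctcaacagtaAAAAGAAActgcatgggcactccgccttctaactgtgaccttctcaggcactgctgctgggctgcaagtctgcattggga
The matches lay at bases −53 to −46 on the minus strand and −30 to −23 on the plus strand from the start. The stricter letters GAAANNGAAA, the core of the interferon-stimulated response element, had no match in this window. The loose form was added after the sequences had been seen, and it stood in 23.9% of all 32851 promoter windows of this length.

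Tnf was the most abundant ligand gene in both libraries. Tnf, which encodes the cytokine that names the family, lies at chr17:35199381-35202007 on the minus strand and was at 20.8 FPKM in the vehicle library and 76.7 FPKM in the 4-OHT library (ratio 3.69, log2 change 1.83). The authors' deposited table gave Tnf a q-value of 0.00466. Its neighbours in the same cluster, Lta and Ltb, encode lymphotoxin alpha and beta. Ltb (chr17:35194439-35196320, plus strand) was at 1.35 and 4.62 FPKM, a log2 change of 1.26, with a q-value of 0.243 in the authors' deposited table. Lta (chr17:35203165-35205351, minus strand) was at 0.0645 and 0.541 FPKM, under the minimum. Lta has 1 annotated transcript, and its values stood for 3 and 20 fragments, which gave a ratio of 8.39 (exact 95% counting interval 2.49 to 44.1). All 3 genes of the cluster thus had more signal in the 4-OHT library, with Tnf far above Ltb and Lta in both. The Ltb promoter window is shown as that of a ligand gene with a kappa B consensus, the site of NF-kB, in capitals at bases −87 to −78 on the minus strand (RefSeq, GRCm38.p6, chr17:35194257-35194556, plus strand).
Ltb: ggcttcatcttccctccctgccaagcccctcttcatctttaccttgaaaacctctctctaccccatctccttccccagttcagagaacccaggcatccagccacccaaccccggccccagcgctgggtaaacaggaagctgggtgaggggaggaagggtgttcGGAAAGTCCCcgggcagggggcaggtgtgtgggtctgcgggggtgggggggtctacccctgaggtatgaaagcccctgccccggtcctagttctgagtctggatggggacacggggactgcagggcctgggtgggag
The kappa B consensus stood in 8.46% of all windows, and the Tnf window held none of the 3 motifs.

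Tnfsf15 and Fasl were also at least 2-fold higher with 4-OHT, from values of very different depth. Tnfsf15, which encodes TL1A, a ligand known from endothelium and macrophages (chr4:63727084-63745113, minus strand), was at 1.73 FPKM in the vehicle library and 13.2 FPKM in the 4-OHT library, a log2 change of 2.38. These values stood for 211 and 1275 fragments, which gave a ratio of 7.62 (95% counting interval 6.58 to 8.86), and the q-value in the authors' deposited table was 0.00466. Fasl, which encodes the death ligand of cytotoxic lymphocytes (chr1:161780689-161788495, minus strand), had 0.501 and 3.83 FPKM, so its ratio was 7.64. The vehicle value of Fasl stood for between 4 and 34 fragments, depending on the transcript. For Fasl the log2 change was 1.69 and the q-value in the authors' deposited table was 0.0412. Lymphocyte markers stand beside Fasl, Ltb and Lta, which lymphocytes are known to express. The 6 measured of 10 T, NK and B lymphocyte markers, none at 0, summed to 7.32 FPKM with vehicle and 12.05 FPKM with 4-OHT. Of the 6, 5 had a positive change, as did 8921 of all 17128 genes. Of the 5 at the minimum, none was at least 2-fold higher or lower, beside 5.78% and 3.48% of all genes there. The T cell receptor component Cd3e was at 0.725 and 2.39 FPKM and Cd3g at 2.18 and 4.45 FPKM, whereas the NK cell gene Klrb1c was at 2.54 and 0.927 FPKM. The part of lymphocytes in the differences of these ligands was not tested.

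The other ligand genes lay within 2-fold or under 1 FPKM. Tnfsf9 and Tnfsf18, both costimulatory ligands of T cells, were at 3.61 and 4.77 FPKM and at 3.38 and 4.51 FPKM. Their fragment ratios of 1.32 and 1.34 had 95% counting intervals of 1.05 to 1.66 and 1.12 to 1.598. Both intervals lay below 2. Tnfsf12, which encodes TWEAK, was at 10.2 and 7.81 FPKM (log2 change −0.35), and Tnfsf13, which encodes the B cell factor APRIL, at 9.91 and 6.47 FPKM (−0.55). These 2 were the ligand genes at the minimum whose change was negative. Tnfsf12 and Tnfsf13 lie next to each other on chromosome 11 and are joined by the annotated read-through gene Tnfsfm13, which holds 46.8% and 57.3% of their 50-base stretches, so the split of fragments among them is uncertain. The antisense RNA Tnfsf13os overlaps Tnfsf13 and was at 0.389 and 0.572 FPKM. Strand use in the counting was not given, so these reads cannot be told apart from those of Tnfsf13. Tnfsf9 shares 11.5% of its stretches with an antisense gene, Gm11110. Under 1 FPKM in both libraries were Tnfsf13b, which encodes BAFF (0.775 and 0.650 FPKM), Tnfsf14, which encodes LIGHT (0.295 and 0.469 FPKM), and Tnfsf4, the ligand of the receptor encoded by Tnfrsf4 (0.125 and 0.471 FPKM). Tnfsf4 stood for 8 and 24 fragments, which is a ratio of 3.78 (interval 1.64 to 9.73), and Tnfsf14 for 19 and 24 fragments, which is a ratio of 1.59 (interval 0.835 to 3.07). The interval of Tnfsf4 lay above 1 and that of Tnfsf14 held 1, for counting error alone.

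**Figure D2:**
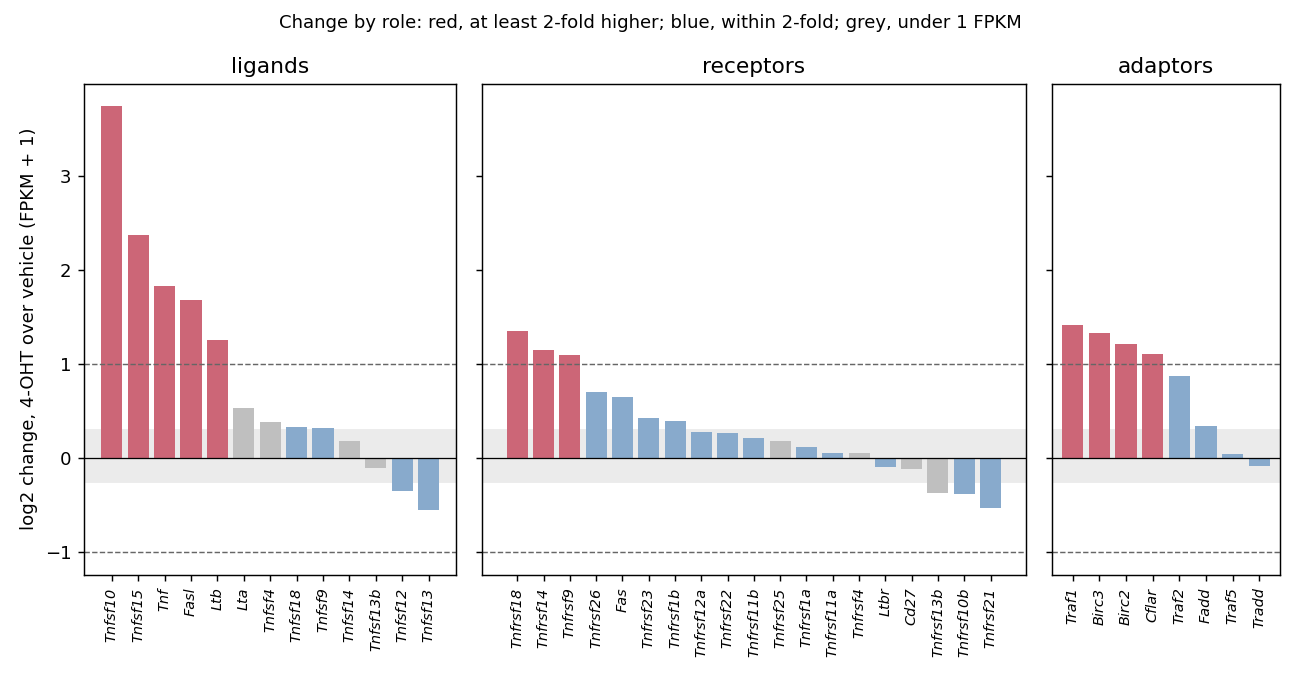
Log2 change of FPKM plus 1, 4-OHT over vehicle, for each ligand, receptor and adaptor gene, with dashed lines at 2-fold and a grey band from the lower to the upper quartile of all genes (−0.25 to 0.30). Red bars are the 12 genes at least 2-fold higher, blue bars genes within 2-fold and grey bars genes under 1 FPKM, and no bar passes the lower dashed line.

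Most receptor genes lay within 2-fold, as did 12303 of all 13558 genes at the minimum. Of 15 receptors at the minimum, 3 were at least 2-fold higher and 12 within 2-fold, of which 9 had a positive and 3 a negative change. Among all genes at the minimum, 5.78% were at least 2-fold higher. With FPKM rescaled to equal totals, the small positive changes of Tnfrsf1a and Tnfrsf11a became negative. The 5 most abundant receptor genes with vehicle were Tnfrsf12a, Tnfrsf1a, Ltbr, Tnfrsf1b and Tnfrsf26, and all lay within 2-fold. Tnfrsf12a, which encodes the TWEAK receptor, was at 60.9 and 73.9 FPKM. Tnfrsf1a, the death-domain receptor of TNF, was at 50.8 and 55.3 FPKM (log2 change 0.12), and Tnfrsf1b, the TRAF-binding receptor of TNF, at 41.4 and 54.7 FPKM (0.39). The genes for both TNF receptors thus differed less between libraries than Tnf did. Ltbr, the lymphotoxin beta receptor, was at 42.8 and 40.2 FPKM (−0.09).

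The 3 higher receptor genes encode costimulatory or checkpoint receptors without a death domain. Tnfrsf14 encodes HVEM, which binds LIGHT and the checkpoint receptor BTLA (chr4:154921933-154928563, minus strand). It was at 7.51 FPKM in the vehicle library and 17.9 FPKM in the 4-OHT library (log2 change 1.15), with a q-value of 0.285 in the authors' deposited table. Tnfrsf9 encodes an activation-induced receptor of T and NK cells (chr4:150914562-150946102, plus strand). It was at 2.93 and 7.43 FPKM (1.10), with a q-value of 0.9996 in the authors' deposited table. Tnfrsf18 encodes GITR, a receptor of regulatory T cells (chr4:156026164-156028895, plus strand), and was at 1.001 and 4.13 FPKM (1.36), with a q-value of 0.891 in the authors' deposited table. The rows of Tnfrsf9 and Tnfrsf18 were less certain than that of Tnfrsf14. The deposited locus of Tnfrsf9 was shared with 3 other gene rows and that of Tnfrsf18 with 1, and Tnfrsf18 shares 18.7% of its 50-base stretches with the antisense gene Gm16008. Without the 11 members that share a locus or at least 10% of their stretches with another gene, 1 of 10 receptors at the minimum, Tnfrsf14, was higher. This alternative was chosen after seeing the data. Tnfrsf9 and Tnfrsf18 are known from T cells, and the T cell marker values given beside Fasl apply here too. The part of T cells in these differences was not tested. With a pseudocount of 5 none of the 3 receptor genes reached 2-fold.

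The promoter windows of Tnfrsf14 and Tnfrsf9 are shown because, of the 3 higher receptor genes, these hold a response element core or a kappa B consensus, in capitals (RefSeq, GRCm38.p6). The Tnfrsf14 window, chr4:154928028-154928327 on the minus strand, has an interferon-stimulated response element core on its minus strand at bases −64 to −55, which runs on into another match of the loose form up to −51.
Tnfrsf14: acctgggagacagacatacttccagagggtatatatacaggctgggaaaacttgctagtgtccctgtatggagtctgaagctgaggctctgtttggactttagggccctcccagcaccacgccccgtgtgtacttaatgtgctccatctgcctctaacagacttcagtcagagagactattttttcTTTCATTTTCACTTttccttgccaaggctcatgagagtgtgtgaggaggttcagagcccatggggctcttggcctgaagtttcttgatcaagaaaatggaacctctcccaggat
The second of the annotated Tnfrsf9 windows, chr4:150927749-150928048 on the plus strand, has overlapping kappa B matches at bases −43 to −33.
Tnfrsf9: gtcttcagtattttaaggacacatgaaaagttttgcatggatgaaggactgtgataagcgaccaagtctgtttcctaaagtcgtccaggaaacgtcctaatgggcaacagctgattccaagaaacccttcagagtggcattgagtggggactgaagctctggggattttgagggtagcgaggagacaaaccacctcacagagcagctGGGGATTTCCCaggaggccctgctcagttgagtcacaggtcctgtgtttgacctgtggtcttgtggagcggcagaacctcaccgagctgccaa
The response element core stood in 3.44% of all windows. A match of letters is a description and does not show that a factor binds there.

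The receptor genes for TRAIL and FAS ligand lay within 2-fold, as did 12303 of all 13558 genes at the minimum. Tnfrsf10b, the death receptor for TRAIL in mouse, was at 8.99 FPKM in the vehicle library and 6.68 FPKM in the 4-OHT library (log2 change −0.38). The genes for the mouse decoy receptors of TRAIL, Tnfrsf22 and Tnfrsf23, were at 5.03 and 6.26 FPKM and at 21.5 and 29.3 FPKM. Tnfrsf11b, which encodes the soluble decoy osteoprotegerin, was at 2.37 and 2.91 FPKM, a fragment ratio of 1.23 (95% counting interval 1.02 to 1.48). On the FPKM scale, Tnfsf10 was at 0.076 times Tnfrsf10b with vehicle and 3.22 times with 4-OHT. Fas, the death receptor for FAS ligand (chr19:34290666-34327772, plus strand), was at 7.22 and 11.9 FPKM (0.65), and Fasl was at 0.0694 times Fas with vehicle and 0.322 times with 4-OHT. Fas lay within 2-fold, as most genes did, while Fasl did not. Tnfrsf26, a gene next to the decoy receptors on chromosome 7, was at 31.8 and 52.6 FPKM (0.71), the largest change among receptor genes within 2-fold. Tnfrsf22 shares 17.3% of its 50-base stretches with Tnfrsf23, and the 3 genes share a deposited locus, so their split is uncertain.

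Of the remaining receptors, Tnfrsf21, a death-domain receptor also called DR6, had the lowest change. It was at 12.6 FPKM in the vehicle library and 8.45 FPKM in the 4-OHT library (log2 change −0.53). Tnfrsf11a, which encodes RANK, the receptor of osteoclast precursors, was at 11.6 and 12.1 FPKM. The 4 receptor genes under 1 FPKM in both libraries are known from lymphocytes. They were Tnfrsf4 (0.820 and 0.889 FPKM), Cd27 (0.753 and 0.615 FPKM), Tnfrsf13b, which encodes TACI (0.783 and 0.381 FPKM), and Tnfrsf25, the receptor of TL1A (0.540 and 0.746 FPKM). Thus 2 of these 4 were lower and 2 higher with 4-OHT, and genes under 1 FPKM cannot reach 2-fold on the scale used. The unpadded FPKM ratio of Tnfrsf13b was 0.486. Its values stood for between 6 and 72 fragments with vehicle and between 2 and 28 with 4-OHT, depending on the transcript.

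**Figure D3:**
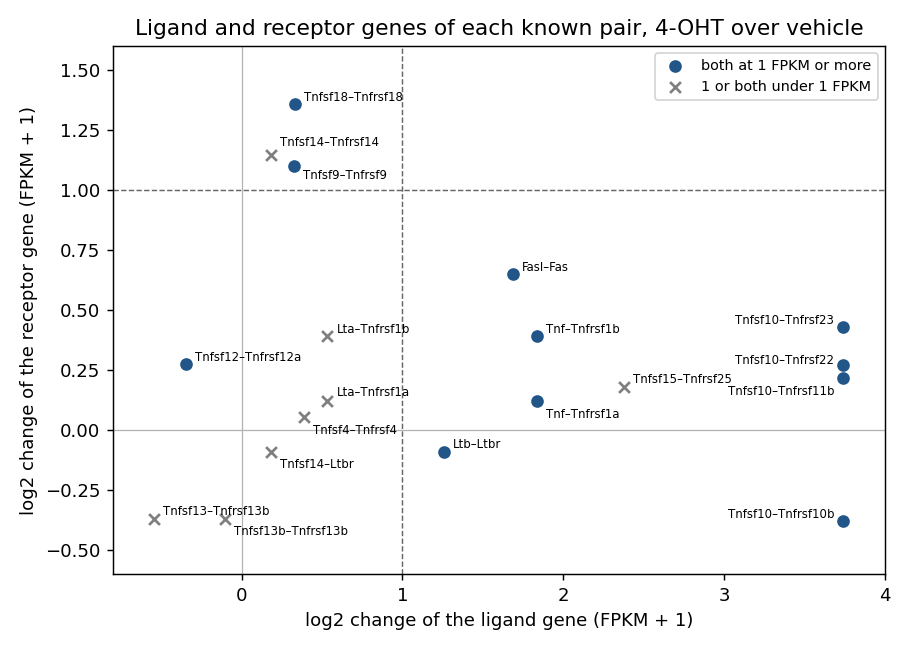
Log2 change of the ligand gene (horizontal axis) and of the receptor gene (vertical axis), FPKM plus 1, 4-OHT over vehicle, for 19 known ligand and receptor pairs, with dashed lines at 2-fold. Circles are pairs with both genes at 1 FPKM or more and crosses pairs with 1 or both genes under it. No point lies past both dashed lines.

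Ligand and receptor genes were set side by side in 19 known pairs, of which 11 had both genes at the minimum. In the 9 pairs whose ligand gene was at least 2-fold higher, which come from 5 ligands, 0 receptor genes were, and in the 3 pairs whose receptor gene was at least 2-fold higher, the ligand gene was not. As 5.78% of all genes at the minimum were at least 2-fold higher, a count of 0 in 9 pairs is near the background and is no result about the pairs. The latter pairs were Tnfsf14 with Tnfrsf14, Tnfsf9 with Tnfrsf9 and Tnfsf18 with Tnfrsf18. Several pairs share a gene, so the 19 are not independent. Tnf was at 0.409 times the level of Tnfrsf1a with vehicle and 1.39 times with 4-OHT, and Tnfsf15 at 3.20 and 17.6 times the level of its receptor gene Tnfrsf25. Tnfrsf25 was under 1 FPKM in both libraries. Its values stood for between 4 and 31 fragments with vehicle and between 4 and 34 with 4-OHT, so the ratios to it are uncertain.

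Among the 8 adaptors and regulators, Cflar, Birc2, Birc3 and Traf1 were at least 2-fold higher with 4-OHT, and the death-domain adaptor genes Fadd and Tradd lay within 2-fold. At the minimum, 5.78% of all genes were at least 2-fold higher and 12303 of 13558 lay within 2-fold. Xiap, an inhibitor-of-apoptosis gene that is no member, also lay within 2-fold, at 67.97 and 77.2 FPKM (log2 change 0.18). Cflar, which encodes the caspase-8 inhibitor FLIP (chr1:58711508-58758884, plus strand), was the most abundant member in both libraries, at 81.5 FPKM in the vehicle library and 177 FPKM in the 4-OHT library (log2 change 1.11). Birc3 and Birc2 encode ubiquitin ligases that attach chains to RIPK1, and lie next to each other on chromosome 9. Birc3 was at 24.1 and 62.1 FPKM (1.33) and Birc2 at 14.0 and 33.8 FPKM (1.21). Birc2 and Birc3 share under 2% of their 50-base stretches with each other. Traf1, an adaptor without a RING domain that NF-kB is known to induce (chr2:34941750-34961772, minus strand), was at 6.55 and 19.1 FPKM (1.41). In the authors' deposited table the q-values were 0.0871 for Traf1, 0.0980 for Birc2, 0.267 for Birc3 and 0.587 for Cflar, so none was called there. With FPKM rescaled to equal totals, Cflar came within 2-fold at 0.95.

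Traf2, the adaptor that brings the BIRC proteins to the receptor, was just under the threshold, at 8.88 and 17.2 FPKM (log2 change 0.88), while Cflar, the lowest gene above it among the regulators, was at 1.11. Traf5, a related adaptor, was at 6.03 and 6.26 FPKM (0.05). Tradd, the adaptor of the TNF death-domain receptor, was at 8.80 and 8.25 FPKM (−0.08). Fadd, which recruits caspase-8, was at 2.94 and 3.99 FPKM (0.34), a fragment ratio of 1.35 (95% counting interval 1.18 to 1.55). The Fadd interval lay below 2, and that of Tradd could not be given because it has several transcripts. The Cflar promoter window is shown for its response element core, in capitals at bases 7 to 16 after the start on the minus strand (RefSeq, GRCm38.p6, chr1:58711241-58711540, plus strand).
Cflar: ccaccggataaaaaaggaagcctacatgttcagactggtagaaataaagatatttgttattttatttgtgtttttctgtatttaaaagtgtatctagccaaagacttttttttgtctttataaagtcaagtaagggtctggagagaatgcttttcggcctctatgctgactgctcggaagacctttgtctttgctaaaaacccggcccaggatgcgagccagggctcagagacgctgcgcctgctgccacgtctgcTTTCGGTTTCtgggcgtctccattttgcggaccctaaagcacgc

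Promoter windows were matched for 32 of the 41 members, with 36 windows. The response element core stood in the windows of 2 of the 12 higher genes (Cflar and Tnfrsf14) and of 2 of the 20 other members (Tnfrsf1b and Tnfsf13b). The kappa B consensus stood in those of 2 of the 12 (Ltb and Tnfrsf9) and 1 of the 20 (Tnfrsf25). The loose form, which was added after the sequences had been seen, stood in those of 7 of the 12 and 6 of the 20. Every match of the core is also one of the loose form. Over windows, the shares were 11.1%, 8.33% and 38.9% for the members, against 3.44%, 8.46% and 23.9% for all windows. Motifs were thus found in genes called higher and in genes not called, and no test was made. The genes not called include some under 1 FPKM in both libraries, Tnfsf13b and Tnfrsf25 among them, which could not reach 2-fold on this scale.

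**Figure D4:**
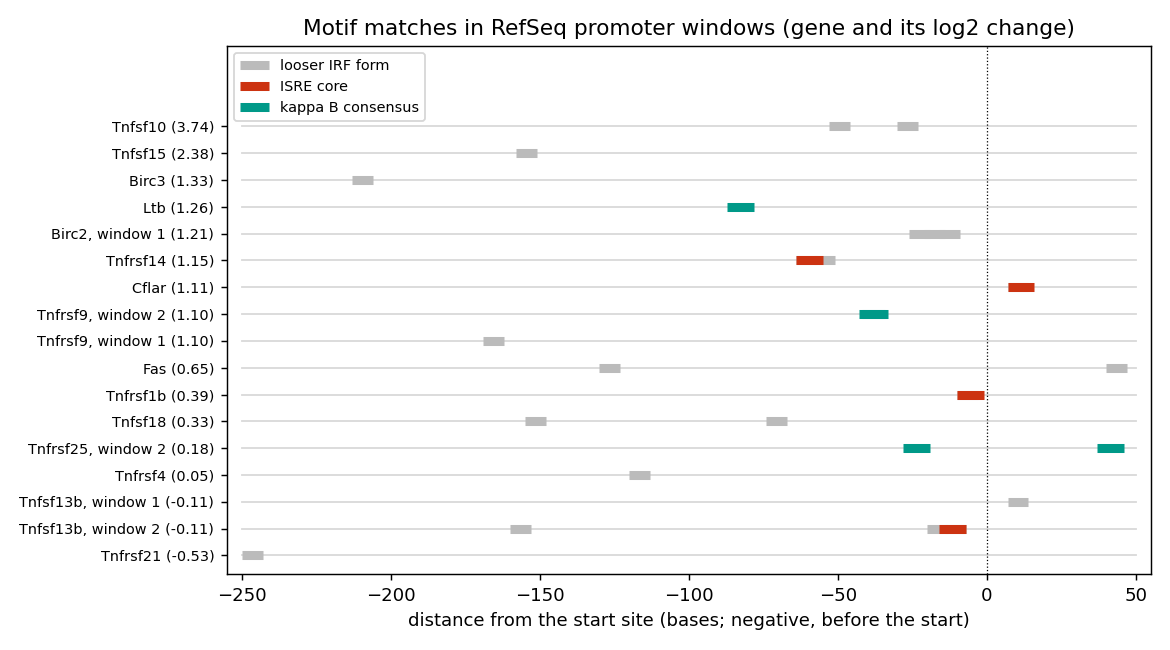
Position of each motif match in the RefSeq promoter windows of members that have one, in bases from the start site, with genes ordered by log2 change (in brackets) from Tnfsf10 at 3.74 to Tnfrsf21 at −0.53. Red marks the response element core, green the kappa B consensus and grey the loose form, and windows of genes with changes near 0 also hold matches.

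Genes that work with the family were described by lists, which were chosen with earlier results of these data known. Of all genes at the minimum, 5.78% were at least 2-fold higher and 3.48% at least 2-fold lower, with a median change of 0.03. In lists of this size none lower is near the latter share, and in the shortest lists 1 higher gene is near the former. Of 17 genes of the TNF receptor 1 signalling complex, 3 were at least 2-fold higher and none lower, with a median of 0.37. The 3 were Rnf31, the catalytic subunit of the linear ubiquitin ligase (9.97 and 39.5 FPKM, log2 change 1.88), and the brakes Tnfaip3, a ubiquitin-editing enzyme (23.5 and 65.4 FPKM, 1.44), and Tnip1, its partner (37.2 and 95.03 FPKM, 1.33). The kinase gene Ripk1 was at 39.1 and 50.8 FPKM (0.37). Of 11 genes of the death arm, 2 were higher and none lower, with a median of 0.41. They were Mlkl, the executioner of necroptosis, and Bid, which links caspase-8 to mitochondria. Mlkl was at 30.7 and 151 FPKM (log2 change 2.26) and Bid at 14.1 and 29.5 FPKM (1.02). Casp8, the initiator caspase, lay just within 2-fold at 42.4 and 83.0 FPKM (0.95), and Bax, a pore-forming effector, at 123 and 105 FPKM (−0.22). With rescaled or centred values Bid came within 2-fold, as did Tank, described with the TRAF genes.

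Of 21 NF-kB target genes that TNF is known to induce, 10 were at least 2-fold higher and none lower, with a median of 0.91. The shares of all genes at the minimum were 5.78% higher and 3.48% lower. The largest changes were those of the chemokine genes Ccl7 (61.5 and 600.4 FPKM, log2 change 3.27), Cxcl1 (18.2 and 103 FPKM, 2.44) and Cxcl2 (9.46 and 46.7 FPKM, 2.19), and of Il6 (2.25). These genes are also known to respond to other signals than TNF. The inhibitor gene Nfkbia, an early NF-kB target, lay within 2-fold at 59.2 and 111 FPKM (0.90), and Tnfaip2 at 181 and 188 FPKM (0.05). Of the 4 genes of the alternative NF-kB arm, Relb was higher, at 11.96 and 27.9 FPKM (1.16), and Map3k14, the kinase that starts this arm, was at 3.57 and 3.94 FPKM (0.11). Of 9 other TRAF genes and partners, 1 was higher, Tank, a TRAF-binding regulator, at 41.8 and 85.6 FPKM (1.02), and the median was 0.04. The lists share Relb, Nfkb2, Traf3 and Tnfaip3.

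Family genes with other symbols gave 1 higher gene among 5 at the minimum, where 5.78% of all genes were higher. Cd40, a receptor of antigen-presenting cells that binds TRAF adaptors, was at 5.69 FPKM in the vehicle library and 60.6 FPKM in the 4-OHT library (log2 change 3.20), larger than the change of any receptor gene among the members. Its ligand gene Cd40lg was at 0.193 and 0.455 FPKM. Eda2r, a receptor of ectodysplasin, was the most abundant of this list in the vehicle library, at 34.9 and 37.6 FPKM (0.10). The genes that shed ligands from the membrane lay within 2-fold. Adam17, which releases TNF, was at 60.85 and 60.81 FPKM, and Rhbdf2, which matures that protease, at 24.7 and 44.0 FPKM (0.81). Macrophage markers stand beside Tnf and Cd40, since macrophages are known to express both. Of the 12, 10 lay within 2-fold, 4 of them with a positive and 6 with a negative change. The other 2, Lyz2 and Vsig4 (191 and 82.5 FPKM), were at least 2-fold lower. The part of macrophages in the differences of Tnf and Cd40 was not tested. Neutrophil and dendritic cell markers at the minimum numbered 2 each, with 1 higher, the neutrophil receptor gene Csf3r (7.38 and 17.6 FPKM). The other neutrophil marker, S100a8, was at 2.58 and 1.04 FPKM (−0.81). Hepatocyte and mesothelial markers summed to 1.41 and 10.1 FPKM with vehicle and 0.334 and 4.18 FPKM with 4-OHT.

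**Figure D5:**
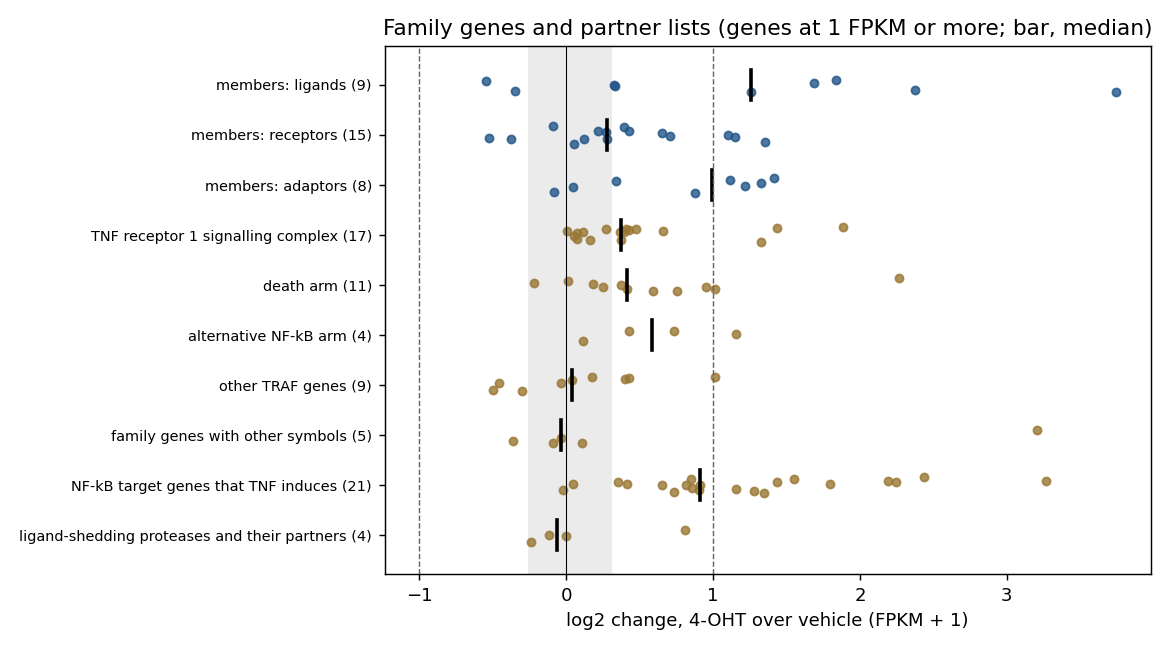
Log2 change of FPKM plus 1, 4-OHT over vehicle, of each gene at 1 FPKM or more, for the members by role (blue) and for the partner lists (brown), with the number of genes in brackets, a black bar at each median, dashed lines at 2-fold and a grey band between the quartiles of all genes. The ligand median of 1.26 holds for the 9 ligands at the minimum, and it was 0.39 over all 13.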

How the data were processed

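RNA of 1 vehicle and 1 4-OHT library was analysed from a table of 17145 gene rows. It holds FPKM for each library and the p-values, q-values and log2 fold changes of a comparison, all as the file headers name them and as the authors deposited them. The submitters' processing notes name STAR, Cufflinks and GRCm38 without roles or versions. The deposited log2 fold change equalled the log2 of FPKM plus 1, 4-OHT over vehicle, within 1e-09 in all 17145 rows. Gene identifiers restored 20 symbols that had turned into dates, and of 17 symbols on more than 1 row the row with the larger sum was kept, leaving 17128 genes. The members, lists and thresholds were chosen with earlier results of these data known. Members at the minimum and past 2-fold are given in full, the others in short, and of each partner list at most 5 genes past 2-fold are named. Ripk1, Casp8, Bax, Xiap, Nfkbia, Tnfaip2, Map3k14, Cd40lg, Eda2r, Adam17 and Rhbdf2 fall outside that rule and were chosen after their values were seen. Alternatives were other pseudocounts and minimums, rescaled or centred values, the deposited q-value and leaving out members of shared sequence or locus, the last chosen after seeing the data.

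Coordinates and transcript lengths came from GENCODE M21 (GRCm38), whose identifiers matched all members. For genes with 1 annotated transcript over 600 bases, FPKM times effective length lay on whole steps. In the vehicle library 97.4% of 416 low values, and in the 4-OHT library 99.0% of 518, lay no more than 0.1 fragment from a whole number. Thus 1 FPKM over 1 kilobase stood for 38.6 and 30.5 fragments. For 8 such members this gave exact (Clopper-Pearson) 95% intervals of the ratio, which cover counting error only, since copies made by PCR are counted too. The depth behind the 33 others is known only as a range. Shared sequence was counted as stretches of 50 bases in other genes' transcripts. Steps were tested on simulated data. Python 3.11.15, pandas 2.3.3, NumPy 2.4.6 and SciPy 1.17.1 were used. No test across replicates was possible.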

Additional observations from a re-analysis of the deposited data

How the results depend on the processing

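No paired analysis was possible because each group had 1 library. Of the called changes of single members, 6 lost the 2-fold threshold under an alternative. The alternatives shift values too little to turn a called change negative. Among members not called, rescaled FPKM turned small positive changes negative for Tnfrsf1a (−0.04), Tnfrsf11a (−0.10), Traf5 (−0.10) and Tnfrsf4 (−0.03). With a pseudocount of 5, Tnfrsf14 was at 0.87, Fasl at 0.68, Tnfrsf9 at 0.65, Tnfrsf18 at 0.60 and Ltb at 0.60, and with rescaled FPKM Cflar was at 0.95. The count of higher members fell from 12 to 7 with a pseudocount of 5 (3 ligands, 0 receptors) and to 4 by the authors' deposited q-value (0 receptors, 0 adaptors). With a minimum of 5 FPKM, 3 ligands were higher, and without members of shared sequence or locus, an alternative chosen after seeing the data, 1 receptor was. The cause of these differences was not tested. No member was at least 2-fold lower under any of the 8 alternatives run. Tnfrsf13b, under 1 FPKM in both libraries, had an unpadded FPKM ratio of 0.486, which the pseudocount or the minimum kept from a call. The alternative without a minimum could not alter any call, since genes under 1 FPKM in both libraries cannot reach 2-fold with a pseudocount of 1. Among partner lists, a pseudocount of 5 left 1 higher gene in the death arm and 0 in the alternative NF-kB arm and among other TRAF genes. Rescaled and centred values each left 1 in the death arm and 0 among other TRAF genes. The other list counts stayed within 1.5 times. Rescaling FPKM to equal totals moved the median of all genes to −0.13, with 15371 genes then at the minimum. Their split went from 783 higher and 472 lower to 786 and 954. The rescaled totals lay above the deposited ones while the pseudocount and minimum stayed at 1, so this setting also weakened both. A pseudocount of 0.1 alone gave 1010 higher and 859 lower. Depth limits Lta, Tnfsf4 and Tnfsf14 to 24 fragments or fewer a library. For members with several transcripts no counting interval could be given.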
